A study of Homo sapiens with 6 samples.

Results

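The comparison is between 2 ChIP-seq libraries of H3K27ac, 1 from CCRF-CEM cells with a knockout of SLFN11 and 1 from parental CCRF-CEM cells, labelled wild-type, both after 2 h in 100 nM camptothecin. They are 2 of the 6 libraries of the series, chosen by genotype and time alone. CCRF-CEM is an established human leukemia line of T lymphoblasts. The other 4 libraries are both genotypes in the vehicle DMSO and both after 4 h in 100 nM camptothecin. None of those 4 was used to choose a locus, and their values are given only for loci chosen on the 2 h pair. Each group has 1 library, so no difference has a replicate check and no p-value between groups was computed. The number of knockout clones is not given in the sources used here. The shared extraction text of the labels speaks of 4 h of treatment for every sample, while the label of each of these 2 samples gives 2 h.

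H3K27ac, acetylation of a lysine in the tail of histone H3, is laid down by acetyltransferases such as CBP at active promoters and enhancers. The Schlafen protein SLFN11 is recruited to stressed replication forks and stops replication there, and its loss is known to make cells resistant to drugs that damage replicating DNA. Camptothecin traps topoisomerase 1 on DNA, and forks that meet the trapped enzyme stall or break. The comparison asks how marked chromatin differs between cells with and without SLFN11 under the drug.

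The authors' lists held 221753 peaks in the knockout and 180754 in the parental cells at 2 h. Background pileup, in fragments per base, was solved from the lists as a measure of relative depth and was 0.715 in knockout 2 h and 0.506 in parental 2 h, a ratio of 1.41. Among the other libraries it ranged from 0.570 to 0.699, apart from knockout 4 h with 0.168. Equal numbers of peaks were therefore compared, the 30000 of smallest p in each library on chromosomes 1 to 22 and X, called the top lists, whose members are the top peaks. Apart from knockout 4 h, parental 2 h stood furthest from the other libraries in the strength ranks described below, and the counts without it are given there. Positions are on hg19. An annotation of that build was not used here, so loci carry no gene name, and neither the SLFN11 locus nor the markers of T lymphoblasts were checked.

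The strongest sites of each genotype were also marked in the other, though not always as strongly. Each of the 5000 strongest knockout peaks overlapped a top parental peak, and each of the 5000 strongest parental peaks overlapped a top knockout peak (100% both ways, Wilson 95% interval 99.9 to 100). Over the whole top lists, 71.4% of knockout peaks (Wilson 95% interval 70.9 to 71.9) and 71.7% of parental peaks (71.1 to 72.2) were shared by at least 1 bp. The 8576 unshared knockout peaks were 28.6% of their list, and the 8504 unshared parental peaks 28.3%. These intervals cover counting error over peaks only.

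Unshared peaks were weak and narrow. Their median −log10 p was 4.03 in the knockout and 3.97 in the parental list, against 11.4 and 8.91 for shared peaks. Median widths were 556 bp and 361 bp for unshared knockout and parental peaks, against 1305 bp and 1183 bp for shared ones. From rank 5001 to 10000, 23 knockout and 8 parental peaks had no partner in the other top list. From rank 25001 to 30000 only 27.2% of knockout and 30.3% of parental peaks had one. Most of the missing partners were present below the top lists. Among all deposited peaks of the other library, 94.6% of top knockout peaks (94.4 to 94.9) and 95.3% of top parental peaks (95.0 to 95.5) found one.

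**Figure D1:**
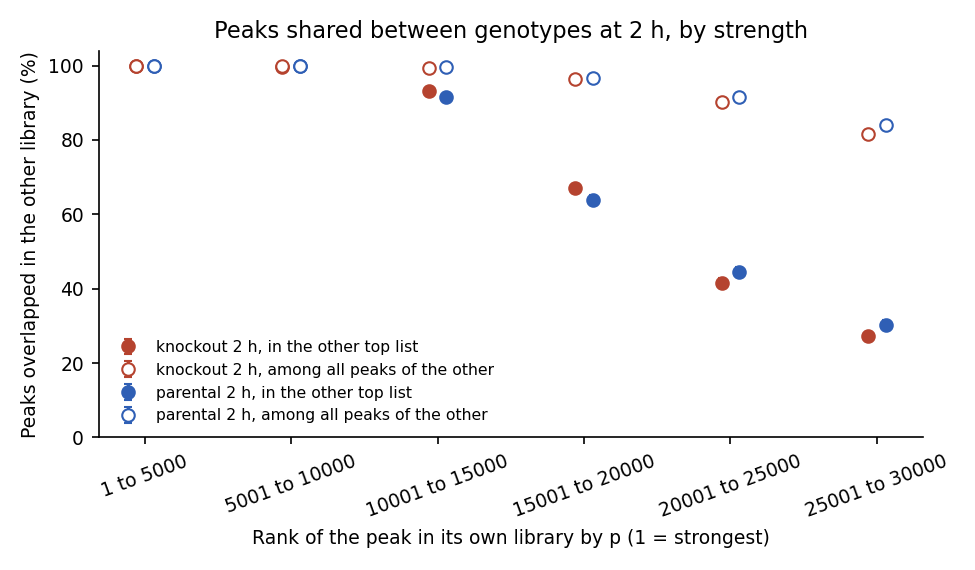
Percent of peaks of each library at 2 h overlapped in the other library, against the peak's rank by p in its own library, in steps of 5000 ranks. Filled points use the other top list and open points all of its deposited peaks, with Wilson 95% intervals as bars. Filled points go from 100% in the first step to 27.2% and 30.3% in the last, while open points stay at 81.7% and 83.9% there.

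Peaks were wider in knockout 2 h than in parental 2 h. At 21179 sites with a single peak in each top list, the median width was 1302 bp in the knockout and 1185 bp in the parental cells, and the knockout peak was the wider one at 67.5% of sites. A knockout peak exceeded its parental partner by at least 500 bp at 2378 sites, and the reverse held at 845. Among the 2000 strongest of these sites, 78.1% were wider in the knockout, but only 25.9% had the higher fold there, with median folds of 6.28 in the knockout and 6.62 in the parental cells. The whole top lists covered 37.7 Mb in the knockout and 32.1 Mb in the parental cells. Median widths of the top lists were 1143 bp in knockout 2 h, 1103 bp in knockout control, 1101 bp in parental control, 1021 bp in parental 4 h and 938 bp in parental 2 h, so parental 2 h was the narrowest of these 5. Knockout 4 h, with the lowest background of the 6, was narrower still, at 710 bp. Parental 2 h also had the lowest background pileup of these 5, and the part of depth in the width difference was not tested.

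Cover was then summed in windows of 10 kb. Of 38132 windows with a top peak in either library, 22384 were marked in both, 7539 in the knockout only (19.8%) and 8209 in the parental cells only (21.5%). By length, 3597 windows (9.43%) had at least 1000 bp more cover in the knockout and 1165 (3.06%) had at least 1000 bp more in the parental cells. Windows marked only in knockout 2 h were marked in knockout control in 43.1% of cases and in parental control in 38.1%. Those marked only in parental 2 h were marked in parental control in 23.6% and in knockout control in 23.5%. Over all windows with a top peak at 2 h, 67.9% were marked in knockout control and 66.5% in parental control. At 4 h the order was the opposite: windows marked only in knockout 2 h were marked in 23.5% of cases in knockout 4 h and 33.4% in parental 4 h. Those marked only in parental 2 h were marked in parental 4 h in 27.7% and in knockout 4 h in 36.8%, against 66.2% and 57.2% of all windows.

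The 10 windows with the largest excess of cover in each direction were named by rule. On chromosome 15 from 100870001 to 100880000, top peaks covered 5963 bp in knockout 2 h and 1425 bp in parental 2 h, and this difference was also seen in the controls (6114 bp in the knockout and 1470 bp in the parental cells). At 4 h it was absent, with 1396 bp in the knockout and 1463 bp in the parental cells. Over all deposited peaks the same window held 6163 bp in knockout 2 h and 4764 bp in parental 2 h. In the controls all deposited peaks gave the opposite order, 6114 bp in the knockout and 6609 bp in the parental cells. The best −log10 p there was 15.8 in knockout 2 h and 5.29 in parental 2 h.

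On chromosome 2 from 87060001 to 87070000, knockout 2 h had 6266 bp and parental 2 h 1080 bp of top-peak cover, the largest difference of all windows. Knockout control had 4401 bp, parental control 3256 bp, parental 4 h 4741 bp and knockout 4 h 465 bp. Parental 2 h was below both other parental libraries. The same held of 8 of the 10 windows longer in the knockout, but a choice by low top-peak cover in parental 2 h favours this order. With all deposited peaks the chromosome 2 window held 4724 bp in parental 2 h, 4804 bp in parental control and 4741 bp in parental 4 h. On chromosome 20 from 37350001 to 37360000 all deposited peaks covered 5143 bp in parental 2 h, above parental control (3255 bp) and parental 4 h (4746 bp). In top-peak cover, the window on chromosome 1 from 206940001 to 206950000 held 4489 bp in knockout 2 h and 0 in parental 2 h. Its controls had 1753 bp in the knockout and 3387 bp in the parental cells, the opposite order.

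On chromosome 4 from 40210001 to 40220000, parental cells had the most cover, with 4766 bp at 2 h against 3474 bp in control and 4596 bp at 4 h, while the knockout had 1329 bp in control and 0 in both treated libraries. All deposited peaks gave 4766 bp in parental 2 h and 3182 bp in knockout 2 h. Here the genotypes did not overlap in the top lists. The 2 h pair chose this window and the next one, which favours such an order, so both are descriptions. On chromosome 6 from 35030001 to 35040000 top peaks covered 3511 bp in parental 2 h, 2615 bp in parental control and 2641 bp in parental 4 h, and all 3 knockout libraries had 0. With all deposited peaks that window was covered in the knockout too, by 3087 bp at 2 h against 3511 bp in parental 2 h, and knockout control had the most of all libraries, 4196 bp.

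Over the 10 windows longer in the knockout, all deposited peaks covered a median of 5157 bp in knockout 2 h and 4791.5 bp in parental 2 h. For the 10 longer in the parental cells the medians were 3681 bp in parental 2 h and 3604 bp in knockout 2 h. An excess of at least 1000 bp was left in 4 windows of the first set and 1 of the second. No named window was without a deposited peak in the other library. In 6 of the first 10 windows parental 2 h had no top peak, and in 9 of the second 10 knockout 2 h had none.

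**Figure D2:**
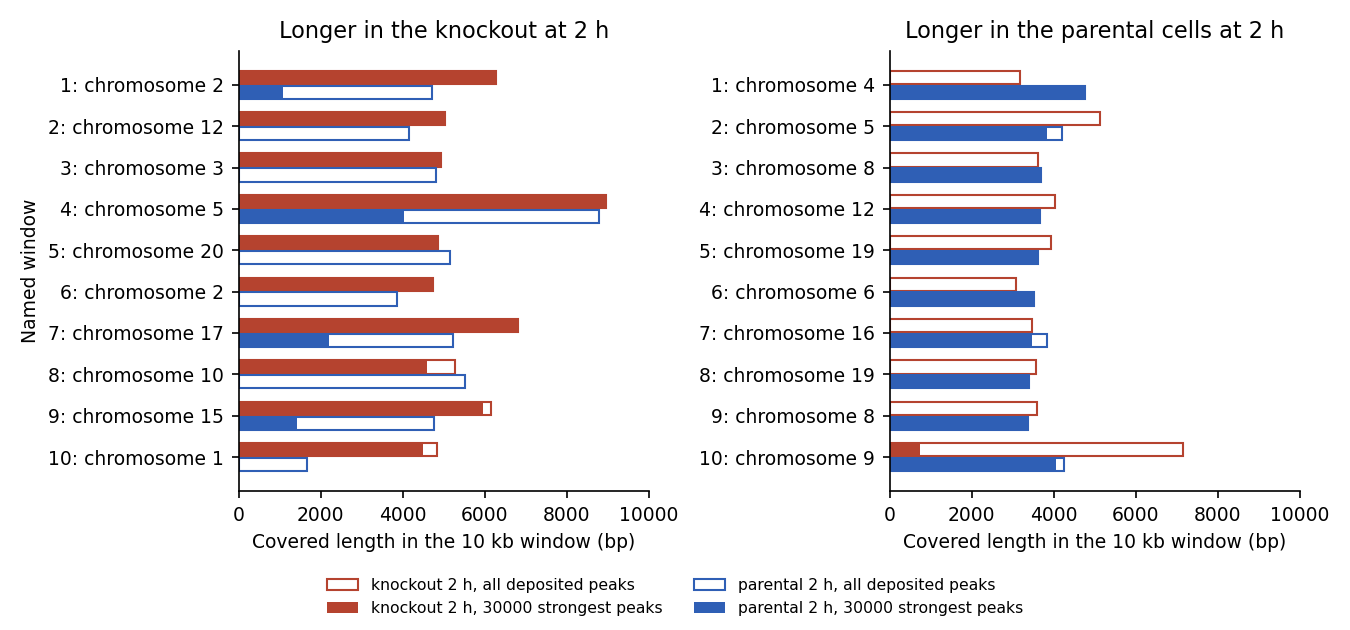
Covered length in bp of the 10 named windows in each direction, for knockout 2 h in red and parental 2 h in blue. Solid bars count the 30000 strongest peaks and outlined bars all deposited peaks. The outlined bars of the 2 libraries are much closer to each other than the solid ones, with medians of 5157 and 4791.5 bp in the left panel.

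Strength was compared over regions made by merging both top lists. Each of the 38444 regions, with a median width of 981 bp, received a rank in every library from its most significant deposited peak, with rank 1 for the strongest. Regions without a peak shared the last place. A region was called when its 2 ranks differed by more than 12814.667 places, the number of regions divided by 3. By this rule 2919 regions (7.59%) were higher in the knockout and 3143 (8.18%) in the parental cells. Spearman's rho between the ranks was 0.71 over the 38444 regions, which share their libraries, depth and way of choice.

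Strong regions were rarely called. Of 2373 regions ranked up to 2000 in the stronger library, 2 were called higher in the knockout and 0 in the parental cells. Regions ranked up to 10000 numbered 10923, with 59 called in the knockout (0.54%) and 21 in the parental cells (0.192%). Between ranks 15001 and 20000, 20.3% of regions were called in the knockout and 23.2% in the parental cells. The rank gap for a call spans a larger difference in −log10 p for a strong region than for a weak one. The rise of these shares is thus partly built into the rule and does not show that strong regions differ less. Called regions were also narrow, with a median of 571 bp in the knockout set and 362 bp in the parental set. The 2 sets lay in different surroundings: the median distance to the next region was 8696 bp in the knockout set and 30589 bp in the parental set, against 15109 bp over all regions. Regions at least 100 kb from any other made up 4.93% of the knockout set, 17.3% of the parental set and 8.54% of all. Whether depth had a part in these distances was not tested.

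**Figure D3:**
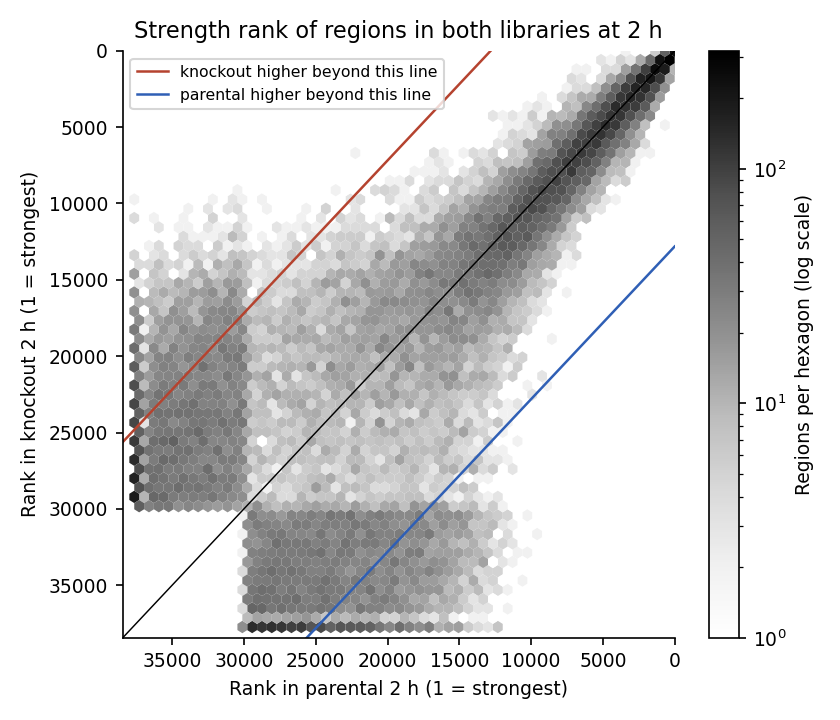
Rank of the 38444 regions in knockout 2 h against their rank in parental 2 h, both with rank 1 at the top right, shaded by the number of regions per hexagon on a log scale. The 2919 regions beyond the red line were higher in the knockout and the 3143 beyond the blue line in the parental cells. Points near rank 1 hug the diagonal, and the empty corner at the lower left holds no region because each region has a top peak in at least 1 library.

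The controls, which took no part in the choice, kept the order of the called strong regions in nearly all cases. Of the 59 regions called in the knockout within rank 10000, 54 (91.5%) also ranked higher in knockout control than in parental control. All 21 called in the parental cells ranked higher in parental control than in knockout control. Over the 10923 regions of that strength, knockout control was the higher one in 49.4% and parental control in 50.5%. The pair of control libraries shares no library with the 2 h pair. At 4 h, 31 of the 59 and 17 of the 21 kept the order, against 36.2% and 63.7% of the 10923 regions, with the low background of knockout 4 h standing beside these values.

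Weaker called regions kept the order less clearly. Between ranks 10001 and 15000, it was kept in the controls by 351 of 462 regions called in the knockout and by 268 of 533 called in the parental cells. Between ranks 20001 and 25000 the counts were 527 of 993 and 548 of 982. Over all called regions, knockout control ranked above parental control in 61.2% of those higher in the knockout and in 46.0% of those higher in the parental cells, against 48.6% of all regions. Parental control was the higher one in 54.0% of the regions higher in the parental cells, against 51.4% of all. Knockout control ranked above both parental control and parental 4 h in 50.8% and 27.9% of these sets, against 32.8% of all regions. It ranked below both in 41.2% of the regions higher in the parental cells, against 35.5% of all.

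The 4 h pair gave other shares. Parental 4 h ranked above knockout 4 h in 32.8% of the regions higher in parental 2 h, against 54.2% of all regions, so the order at 2 h was mostly turned. Among those of ranks 10001 to 15000, 172 of 533 kept the order at 4 h. Knockout 4 h was the higher one in 47.1% of the regions higher in knockout 2 h, against 45.8% of all. The low background of knockout 4 h stands beside these shares, and its part in them was not tested.

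The 8 regions called within rank 5000 were looked at singly, a choice made after their values were seen. On chromosome 3 from 17980308 to 17981457, the −log10 p was 38.2 in knockout 2 h and 5.05 in parental 2 h, with folds of 8.27 and 3.89. Its ranks were 1643, 1211 and 2906 in knockout control, 2 h and 4 h, and 6760, 17553 and 21482 in parental control, 2 h and 4 h. The parental control was nearest to the knockout, and both treated parental libraries lay far below it. Of 14 other regions within 100 kb, 13 ranked higher at 2 h in the knockout. Of the 14, 7 were called in that direction, against 7.59% of all regions.

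Another region on that chromosome, from 18426396 to 18428240, had a −log10 p of 28.0 in knockout 2 h and 4.44 in parental 2 h. The knockout ranks were 4180 in control, 3234 at 2 h and 5516 at 4 h, against parental ranks of 14596, 20357 and 18804. All knockout libraries were thus stronger than all parental ones, as at the first site. Of its 12 neighbours within 100 kb, 11 also ranked higher in the knockout at 2 h than in the parental cells.

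On chromosome 1 from 158377197 to 158377986, the −log10 p was 33.6 in knockout 2 h and 5.38 in parental 2 h, with folds of 11.0 and 4.09. The knockout ranks were 5032 in control, 1908 at 2 h and 6083 at 4 h, against parental ranks of 11468, 16372 and 12269. Parental 2 h was the weakest and knockout 2 h the strongest of the 6 libraries here. Among its 16 neighbours within 100 kb, 15 ranked higher in knockout 2 h and 6 were called.

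On chromosome 8 from 130381544 to 130382267, the −log10 p was 28.9 in knockout 2 h and 4.11 in parental 2 h. Ranks were 7583, 2985 and 3622 in knockout control, 2 h and 4 h and 15893, 22430 and 19065 in the parental libraries. All 12 neighbours within 100 kb ranked higher in knockout 2 h, and 4 of them were called. One of the named regions lies in the same stretch, from 130390102 to 130390455. It had a −log10 p of 11.1 in knockout 2 h, 15.0 in knockout control and 9.59 in knockout 4 h, against 4.71 in parental control, 3.64 in parental 4 h and no deposited peak in parental 2 h.

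The other knockout regions of this strength lay on chromosome 14 from 99009722 to 99010646 and on chromosome X from 39864195 to 39866115. The first had knockout ranks of 4530 in control, 3670 at 2 h and 7216 at 4 h, and parental ranks of 10918, 16497 and 11157. The second ranked 5763, 4695 and 9413 in the knockout and 14844, 17941 and 15083 in the parental cells. Neither overlapped between genotypes. Of their neighbours within 100 kb, 1 of 2 and 5 of 6 ranked higher in knockout 2 h, with 1 and 0 called.

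Both strong regions called in the parental cells showed the reverse order in all 6 libraries. On chromosome 14 from 105741906 to 105743972, the −log10 p was 20.8 in parental 2 h and 3.93 in knockout 2 h. Parental ranks were 2764, 4209 and 2619 in control, 2 h and 4 h, and knockout ranks were 23893, 24626 and 17195. On chromosome 3 from 169529720 to 169531046, the parental cells ranked 4308, 3681 and 4376 and the knockout 14866, 18015 and 30318. The strongest knockout library was thus still more than 10000 ranks below the weakest parental one at both sites. Of their neighbours within 100 kb, 6 of 8 and 2 of 3 ranked higher in parental 2 h, with 2 and 1 called.

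In each of the 8 regions every library of the stronger genotype outranked every library of the other. Over all regions, the 3 knockout libraries outranked the 3 parental ones in 6.57% and the parental ones outranked the knockout in 8.76%. Since the 2 h pair chose the 8 regions and counts among the 6 libraries, this is a description. Within rank 10000, 22 of the 59 knockout and 14 of the 21 parental regions were separated in this way, against 6.66% and 11.2% of all regions of that strength. The 2 h pair chose these regions too, which by itself favours an excess over those shares, so these counts are likewise a description.

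**Figure D4:**
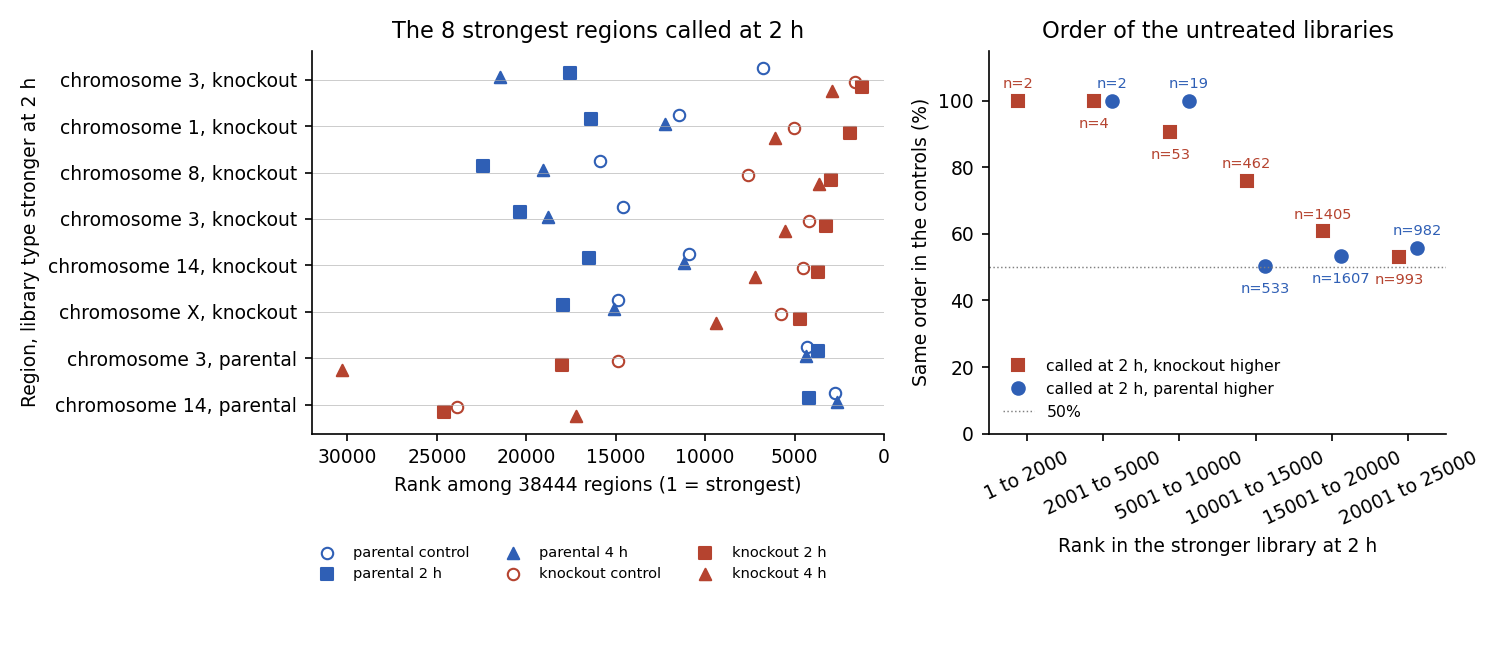
Left, rank in each of the 6 libraries of the 8 strongest called regions, parental in blue and knockout in red. No red symbol lies among the blue ones in any row. Right, percent of called regions whose order at 2 h was also found in the controls, by rank in the stronger library at 2 h, with n the number of regions and a dotted line at 50%. It stands at 90.6% and 100% for ranks 5001 to 10000 and at 53.1% and 55.8% for ranks 20001 to 25000.

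Neighbours of the strong knockout regions mostly ranked in the same direction. Around the 59 of them there were 554 pairs of a called region and another region within 100 kb, and in 78.3% of pairs the neighbour ranked higher in knockout 2 h, against 49.8% of all regions. The neighbour was called higher in the knockout in 22.9% of pairs, against 7.59% of all regions, and higher in the parental cells in 2.53%, against 8.18%. Around the 21 parental regions there were 94 pairs, 67.0% with a neighbour higher in parental 2 h, against 50.2% of all regions. Called neighbours made up 12.8% of these pairs in the parental direction and 2.13% in the other. A neighbour can stand in several pairs, and regions close together share their local background.

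The 12 regions with the widest rank gap in each direction were named by rule among those whose rank in the stronger library was no larger than the gap needed for a call. Those higher in the knockout were from 256 to 1407 bp wide, with a −log10 p from 9.99 to 21.7, and 8 of the 12 held no deposited peak in parental 2 h. The region of the widest gap, on chromosome 17 from 17626807 to 17628213, had a −log10 p of 15.6 in knockout 2 h and 1.87 in parental 2 h. The knockout ranked it 14451, 8198 and 12722 in control, 2 h and 4 h, and the parental cells 26012, 36317 and 32397. Only 4 of its 12 neighbours ranked in the same direction.

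On chromosome 11 from 108463430 to 108464242, the strongest knockout peak without a partner in the parental list had a −log10 p of 21.7 and a fold of 8.09. In the other libraries the −log10 p was 3.0 in parental 2 h, 4.78 in parental control, 4.91 in parental 4 h, 16.4 in knockout control and 5.02 in knockout 4 h. By rank, knockout 4 h (11479) still stood above all parental libraries, whose best rank was 17055. On chromosome 6 from 135640213 to 135640690, knockout 2 h had a −log10 p of 19.5, knockout control 15.1, parental control 5.22, parental 4 h 5.33 and parental 2 h 2.95. Knockout 4 h, with 2.71, ranked 24315, between parental libraries. Of 34 neighbours within 100 kb, 29 ranked higher in knockout 2 h and 9 were called.

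On chromosome 9 from 72262777 to 72263061, parental 2 h and parental 4 h held no peak and parental control had a −log10 p of 2.07, against 7.58, 11.4 and 3.82 in knockout control, 2 h and 4 h. On chromosome 12 from 26170368 to 26170797, by contrast, knockout 2 h stood alone, with a −log10 p of 12.9 against 3.33 in knockout control, 1.90 in knockout 4 h and at most 2.33 in the parental libraries. The region on chromosome 2 from 182295447 to 182295867 was likewise strong only in knockout 2 h among the 6 libraries, with 11.0 there, 2.12 in knockout control, 2.11 in knockout 4 h and no peak in any parental library. All 12 regions ranked higher in knockout control than in parental control, against 48.6% of all regions. At 4 h, 7 of the 12 kept that order, against 45.8% of all regions.

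The 12 named regions higher in the parental cells had no common order in the controls. They were from 212 to 1994 bp wide with a −log10 p from 7.25 to 17.7, and 8 held no deposited peak in knockout 2 h. Only 5 of them ranked higher in parental control than in knockout control, and 7 the other way round. Over all regions the shares were 51.4% and 48.6%. The 12 were chosen by a high rank in parental 2 h, which favours a lower rank in any other library. In 8 of them, parental control itself ranked below parental 2 h by more than the gap needed for a call. An example is chromosome 10 from 108127722 to 108128045, with a −log10 p of 8.53 in parental 2 h, 1.95 in parental control, 2.75 in parental 4 h, 2.33 in knockout control and 4.31 in knockout 4 h. Knockout 4 h, at rank 14221, was the nearest to parental 2 h, at 11142, and knockout 2 h held no peak.

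In 4 of the 12 named parental regions every parental library outranked every knockout one, and in 6 of the 12 named knockout regions the reverse held. Over all regions the shares were 8.76% and 6.57%, but the 2 h pair chose the named regions, which favours such an order. On chromosome 3 from 46606119 to 46608112, the −log10 p was 17.7 in parental 2 h, 17.6 in parental control and 23.8 in parental 4 h, against 2.82 in knockout 2 h, 6.84 in knockout control and 2.26 in knockout 4 h. It was the strongest parental peak without a partner in the knockout list. On chromosome 19 from 58570347 to 58571336, parental control, 2 h and 4 h had 9.61, 12 and 10.9, and the knockout had 3.49, 1.44 and 2.66. On chromosome 1 from 228677808 to 228678655, the parental libraries had 11.1, 7.57 and 5.51, and none of the 3 knockout libraries held a deposited peak. The genotypes did not overlap by rank at these 3 sites.

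**Figure D5:**
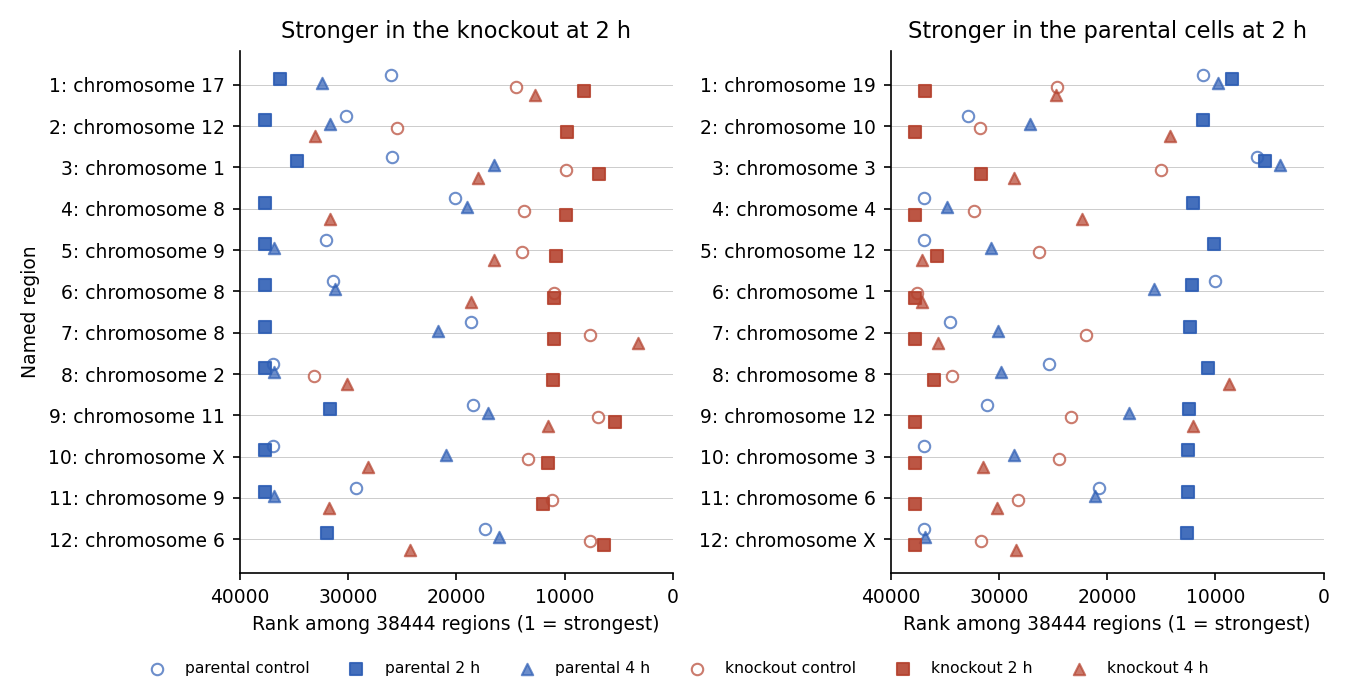
Rank in each of the 6 libraries of the 12 named regions in each direction, parental in blue and knockout in red, with the 2 h libraries as squares. In the left panel the open red circles of knockout control lie to the right of the open blue circles of parental control in all 12 rows, and in the right panel the blue circle lies to the right in 5 rows.

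The other peaks named by rule gave the same mixture. The unshared knockout peak on chromosome 8 from 93618169 to 93618560 had a −log10 p of 16.5, against 6.35 in knockout control, 7.94 in parental control, 3.02 in knockout 4 h, 3.07 in parental 2 h and 4.15 in parental 4 h. On chromosome 19 from 47287683 to 47288278, parental control, 2 h and 4 h had a −log10 p of 16.0, 14.8 and 12.4, and knockout control and 2 h had 4.89 and 3.25, while knockout 4 h held no peak. On chromosome 1 from 566155 to 566808, the knockout had 10.5, 2.30 and 2.87 in control, 2 h and 4 h, and the parental cells 13.8, 11.7 and 5.68. No list of stretches prone to false peaks was applied here, at this site or elsewhere. The widest peak in the knockout's top list, 10112 bp long, lay on chromosome 17 from 78738892 to 78749003 with a low fold of 1.76, and parental 2 h covered 7426 bp of it. The widest parental peak, 9147 bp long with a fold of 1.53, lay on chromosome 1 from 228744126 to 228753272, and the knockout covered 3474 bp of it in the top list and 7477 bp with all deposited peaks.

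Called regions were spread over all chromosomes. Chromosome 19 had the lowest share called in both directions together, 8.77% of its 1620 regions, against 15.8% of all regions. Of its regions 3.70% were higher in the knockout and 5.06% in the parental cells, against 7.59% and 8.18% of all. Its regions were also strong, with a median rank in the stronger library of 11341.5, against 16759.5 over all regions. The part of strength in the shares of single chromosomes was not tested. The share higher in the parental cells was lower still on chromosome 22 (4.30%) and chromosome 16 (4.99%). Chromosome 7 leaned to the parental cells, with 108 regions called in the knockout and 196 in the parental cells of 1908. Chromosome 5 did so as well, with 150 and 218 of 1982. By called regions, chromosomes 15, 16 and 22 leaned to the knockout, with 105 against 69 of 1300, 112 against 75 of 1502 and 56 against 37 of 860. The parental rank minus the knockout rank is negative where the parental cells are stronger. Its median over chromosome 7 was -446.5 at 2 h and -85.5 in the controls. At 2 h it was -114 on chromosome 5, 259 on chromosome 15, -3.5 on chromosome 16 and 114 on chromosome 22. The regions came from the top lists of the 2 h pair, which favours wider gaps at 2 h than in the controls.

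The share of regions called was also taken in the other pairs of libraries. When the same rule was applied to each pair with its own top lists, 15.8% of regions were called between knockout 2 h and parental 2 h. Between parental 2 h and parental 4 h, of 1 genotype, 14.2% were called, between parental control and parental 2 h 14.8%, and between parental control and parental 4 h 12.1%. Knockout 2 h differed from parental 4 h by 12.9% and from parental control by 10.7%. The untreated genotypes, parental control and knockout control, had 10.9% of regions called between them. The fewest were called between knockout control and knockout 2 h, 7.95%, and the pairs with knockout 4 h had 32.6% to 37.9%. Outside knockout 4 h, the 4 pairs with parental 2 h had 14.2% to 15.8% of regions called, and the 6 pairs without it 7.95% to 13.3%. Parental 2 h thus stood apart from both genotypes. With parental 4 h in its place, 2424 regions were higher in knockout 2 h and 2463 in the parental library. With parental control in its place the counts were 1956 and 2040. With 1 library per group, genotype and library cannot be told apart in these counts.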

How the data were processed

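Each library has 1 broadPeak file on hg19, deposited by the authors. The submitters' processing notes name MACS2 2.1.2 for peaks, BWA 0.7.17 for alignment, Picard 2.9.2, SAMtools 1.8, Trimmomatic 0.39 and Trim Galore 0.6.2. Their settings, and the control of the peak calls, were not stated in anything used here. Per the deposited lists, fold is a ratio of pileup to local background averaged across a peak, computed by the authors. The −log10 p and −log10 q are the authors' deposited values, and the deposited score was not used. They served to rank and filter peaks within a list and to solve the background. Fold and p depend on depth, so counts of sites come from equal numbers of peaks and from ranks, and the folds and p printed side by side describe each library on its own scale.

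For the background pileup, the commonest combination of fold and p in a list was solved for 2 unknowns, with a Poisson p and 1 added to pileup and background in the fold. The solution returned the deposited −log10 p to within 1.22e-05. Windows were tiled from position 1. Regions merged the 30000 strongest peaks of the 2 libraries, with the gap for a call set at the number of regions divided by 3. Named were the 12 regions and 10 windows with the largest difference in each direction, the 5 strongest unshared peaks in each direction and the widest peak of each library. Coordinates are 1-based. The members, gene lists and rules were chosen with earlier results of these data known. The planned results on promoters, gene lists and cell type markers were not run, since an hg19 annotation was not used here. Neighbours, 5 Mb segments, the regions called within rank 5000, the rule in other pairs and the swaps of 1 library were chosen after seeing the data. Python 3.11.15, numpy 2.4.6, pandas 2.3.3 and scipy 1.17.1 were used, and the steps were tested on simulated data.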

Additional observations from a re-analysis of the deposited data

How the results depend on the processing

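No paired analysis was possible because each group has 1 library and no result comes from a test; leaving out a library was not possible either. The shared percentages of knockout and parental peaks were 87.5% and 87.7% with 15000 peaks per library, 61.3% and 61.5% with 50000, 79.3% and 95.5% with peaks from a −log10 q of 5 upwards, 67.2% and 53% where each library gave 50 Mb, 67.2% and 67.3% with peaks chosen by fold, 67.4% and 70.0% with an overlap of at least 50%, and 94.6% and 95.3% among all deposited peaks. Windows marked in the knockout only and in the parental cells only numbered 1940 and 1905 with 15000 peaks, 14645 and 16354 with 50000, 3228 and 631 from a −log10 q of 5 upwards, and 11107 and 23533 with 50 Mb. With windows of 25 kb they were 4942 and 6393, and with at least 500 bp covered 5103 and 2690. The excess thus turned to the knockout at the q threshold and with 500 bp covered, and by a small margin with 15000 peaks and with 5 kb windows (9753 and 9329).

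Regions higher in the knockout and in the parental cells numbered 315 and 146 with 15000 peaks, 10264 and 10617 with 50000, 237 and 165 from a −log10 q of 5 upwards, and 13625 and 9882 with 50 Mb. Ranked by fold they were 4437 and 4347, and by width covered 1214 and 678. A gap of 0.25 of the regions gave 5466 and 5514, and a gap of 0.5 of them 385 and 429. With parental control in place of parental 2 h, an alternative chosen after seeing the data, they were 1956 and 2040. On chromosome 19, 8.77% of regions were called, and 1.53% with 15000 peaks. No direction of change between the genotypes can be read from these totals. The part of depth in them was not tested.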

Other observations

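Rank differences between the 2 libraries at 2 h were also taken over stretches of chromosome. Over the 513 segments of 5 Mb with at least 30 regions, the median over a segment of the parental rank minus the knockout rank ranged from -8053 to 6434, with a middle value of -56.5. It leaned by more than 3000 places to the knockout in 19 segments and to the parental cells in 25. In the controls, which share no library with the 2 h pair, the same medians stayed between -1865 and 2780. The regions came from the top lists of the 2 h pair, which favours wider gaps at 2 h than in the controls. On these regions 1.78% were called higher in knockout control and 1.49% in parental control. With the control pair's own top lists 10.9% were called, so the 2 ranges are not a like comparison. Of the 19 segments stronger in knockout 2 h, 16 were also stronger in knockout control than in parental control, against 45.2% of all segments. Of the 25 stronger in parental 2 h, 10 were stronger in parental control, against 54.8% of all segments.

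The largest lean to the knockout lay on chromosome X from 135000001 to 140000000, where 37 of 54 regions ranked higher in knockout 2 h. Its median gap was 6434 at 2 h, 1534 in the controls and 1368 at 4 h, towards the knockout each time. On chromosome 8 from 130000001 to 135000000, which holds 2 of the regions described above, 80 of 112 regions ranked higher in knockout 2 h, and 26 were called in that direction and 5 in the other. The median gap there was 5177 at 2 h, 1030 in the controls and -161 at 4 h. The largest lean to the parental cells lay on chromosome 2 from 75000001 to 80000000, with 33 regions and a median gap of -8053 at 2 h, but 764 in the controls and 4532 at 4 h, the opposite direction. Parental 2 h also stood apart there from parental 4 h, with a median rank of 19368 against 23427. On chromosome 14 from 85000001 to 90000000 the median gap between genotypes was -7004 at 2 h, and the median rank was 18215 in parental 2 h and 27031 in parental 4 h. On chromosome 7 from 80000001 to 85000000 the gap was -7403, with median ranks of 21873 and 28101 in these 2 parental libraries. Segments leaning to the parental cells held few regions, a median of 35, against 79 in those leaning to the knockout and 61 in all. The part of depth in these stretches was not tested.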
